A study of Mus musculus with 20 samples.

Results

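The circadian clock genes examined here are Arntl (also called Bmal1), Clock, Npas2, Nr1d1, Nr1d2, Per2, Per3, Cry1, Bhlhe41 and Dbp. They were chosen by gene symbol, with earlier results of these data known, and are 10 of the 54446 genes in the deposited count table. All 10 were measured in every library and passed the filter on low counts in every comparison.

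RNA-seq had been performed on tibiae of 3-month-old male C57BL/6J mice that received either the synthetic glucocorticoid dexamethasone (DEX) at 1 mg/kg or water as vehicle, injected s.c. for 5 days. In each mouse the left tibia received axial compression of -13 N, with 40 cycles in a session, while the contralateral right tibia was left without load. This gave 4 groups, named loaded vehicle, unloaded vehicle, loaded DEX and unloaded DEX, with 5 libraries in each. The labels give loading on days 1 and 3, whereas a figure legend of the study gives 3 sessions per week and collection on day 5, 4 hours after the last session. All groups were kept under a 12-hour light/dark cycle, and isoflurane anesthesia was used for loading. The clock time of collection is not given in the sources used here, and tibiae were collected at a single time point, so a change in level and a shift of the daily rhythm cannot be told apart. RNA came from frozen, pulverised bone tissue, so that fewer cells of a type and less RNA per cell also cannot be told apart.

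The molecular clock is a feedback loop in which Arntl, paired with Clock or its relative Npas2, activates genes that carry E-boxes in their promoters. The Per and Cry proteins made from such genes repress that pair, while the nuclear receptors Nr1d1 and Nr1d2 (REV-ERB alpha and beta) repress Arntl through RORE sites, and Bhlhe41 and Dbp act on E-boxes and D-boxes. Glucocorticoids are known to reset clocks in peripheral tissues, and clock genes are expressed in osteoblasts, osteocytes and chondrocytes of bone.

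The promoters of the 10 genes were searched for the elements named above. RefSeq promoter windows on GRCm38.p6 run from 250 bases before to 50 bases after an annotated start. They were found for 9 of the 10 genes (12 windows) and searched on both strands. Per2 had no window and was not searched. Arntl, Nr1d1, Per3, Bhlhe41 and Cry1 held a full E-box, E-prime box, D-box or RORE, and Clock, Npas2, Nr1d2 and Dbp held none in these windows. The E-box CACGTG was present for Bhlhe41 and Cry1, the related E-prime box CACGTT for Cry1 and Nr1d1, a full D-box for Per3 and a full RORE for Arntl. Over all 32851 windows of that length in the mouse table, 7.15% held CACGTG, 4.68% held CACGTT, 0.189% held the D-box and 0.384% held the RORE. The core AGGTCA, which forms the end of the RORE, was present for Arntl, Clock and Nr1d2 and for 18.1% of the 27025 genes. The full palindromic glucocorticoid response element was found for 0 of the 9 genes and for 0.0111% of the 27025 genes. Its side AGAACA was found for 0 of the 9 and for 21.3% of the 27025. The stretches below are shown because each holds a match to an element of the loop in a member described below, with the match in capitals, printed on the strand of the gene. For Cry1 the capitals mark the E-box, and its E-prime box, read from the opposite strand, lies in the same stretch in lower case. Positions are counted from the RefSeq start of each window, which can differ from the GENCODE gene coordinates given below. The Bhlhe41 E-box spans 145865568 to 145865573, whereas GENCODE places the start of that gene at 145865558. Whether a factor binds there was not tested.
Arntl, RORE starting at base 27 of the transcript, within an annotated exon, chr7:113207527-113207556, plus strand: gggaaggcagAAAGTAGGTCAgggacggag
Nr1d1, E-prime box read from the opposite strand, starting at position -28, chr11:98775363-98775442, minus strand: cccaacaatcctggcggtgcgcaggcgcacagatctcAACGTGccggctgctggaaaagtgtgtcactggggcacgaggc
Per3, D-box starting at position -159, chr4:151044780-151044859, minus strand: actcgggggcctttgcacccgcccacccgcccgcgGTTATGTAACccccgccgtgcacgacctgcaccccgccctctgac
Bhlhe41, E-box starting at position -153, chr6:145865559-145865638, minus strand: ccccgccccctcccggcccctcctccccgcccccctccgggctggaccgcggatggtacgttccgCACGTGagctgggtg
Cry1, E-box starting at position -60, chr10:85185072-85185151, minus strand: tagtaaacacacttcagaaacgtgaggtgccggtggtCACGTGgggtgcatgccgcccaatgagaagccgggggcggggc

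Library totals ran from 4641437 to 13032018 expected counts, and the 10 genes had between 26.2 and 986 counts per library. The comparisons used 19 libraries: the fourth unloaded DEX library is not among them, since the study removed a DEX-4 data set and plots 4 unloaded and 5 loaded DEX values. Among the 20 libraries, loaded DEX replicate 4 stood apart, with the lowest total and the lowest likeness to its own group (median Spearman rho 0.886, against 0.946 to 0.974 in the other 19 libraries). Markers of the tissue were present in every library, and their sums differed with treatment. The summed level of 11 osteoblast and osteocyte genes was 42936 to 147008 CPM in vehicle libraries and 5202 to 36721 CPM in DEX libraries, and it did not overlap between treatments in either limb. The sum of 7 neutrophil genes was 4155 to 6124 CPM in loaded vehicle and 6857 to 16497 CPM in loaded DEX libraries, and 4835 to 7016 CPM and 8574 to 15672 CPM in the unloaded groups. The sum of 7 B lineage genes was 194 to 295 CPM in loaded vehicle and 51.6 to 152 CPM in loaded DEX libraries, and 181 to 257 CPM and 71.4 to 175 CPM in the unloaded groups. The sum of 7 chondrocyte genes was 742 to 2366 CPM in loaded vehicle and 128 to 469 CPM in loaded DEX libraries, and overlapped between the unloaded groups (412 to 1189 CPM and 217 to 626 CPM). The sums of erythroid, adipocyte and skeletal muscle genes overlapped between treatments in both limbs. Reads over 1965 olfactory and vomeronasal receptor genes, taken as background, summed to 261 to 932 CPM in loaded vehicle and 1097 to 6494 CPM in loaded DEX libraries, which do not overlap, and to 391 to 1364 CPM and 800 to 2918 CPM in the unloaded groups, which do. The part of these differences in the results was tested only for the background reads, as a covariate. As a check on DEX, 5 genes induced by glucocorticoids and the receptor gene Nr3c1 were examined, and 2 of the 6 were higher in loaded tibiae, where 12.9% of all genes were, and 1 was lower in unloaded tibiae, where 3.99% of all genes were. Fkbp5 was higher in loaded DEX than in loaded vehicle tibiae (log2FC 0.87, adjusted p = 0.00777) and had a log2FC of 0.81 in unloaded tibiae (adjusted p = 0.0603). Zbtb16 was higher in loaded tibiae (log2FC 1.01, adjusted p = 0.00930), Sgk1 was lower in unloaded tibiae (-0.63, adjusted p = 0.0318), and Tsc22d3, Klf9 and Nr3c1 did not pass in either limb.

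Levels of the 10 genes were compared with each other per kilobase of annotated exon. Pooled over the 4 groups, Cry1 had the highest level, with a mean of the group means of 8.24 CPM per kb (SD 1.27 over 19 libraries), followed by Per2 with 7.78 (SD 1.66). Clock, Nr1d2 and Per3 came next, with 5.19 (SD 1.06), 5.07 (SD 1.37) and 4.83 (SD 1.45). Arntl had 3.44 (SD 1.66), Dbp 3.10 (SD 0.879), Bhlhe41 2.67 (SD 0.732), Nr1d1 2.66 (SD 1.10) and Npas2 2.42 CPM per kb (SD 1.54). The ranges of all neighbours in this order overlapped over the libraries, so the order of adjacent genes was not resolved. The order also differed between groups. Per2 had a higher mean than Cry1 in unloaded DEX (9.31 against 8.65 CPM per kb) and loaded DEX tibiae (8.12 against 7.82), and a lower one in both vehicle groups. Npas2, the lowest in the pooled order, had 4.03 CPM per kb in loaded vehicle tibiae, above Nr1d2 (3.79), Per3 (3.44), Bhlhe41 (2.91), Dbp (2.39) and Nr1d1 (1.63).

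**Figure D1:**
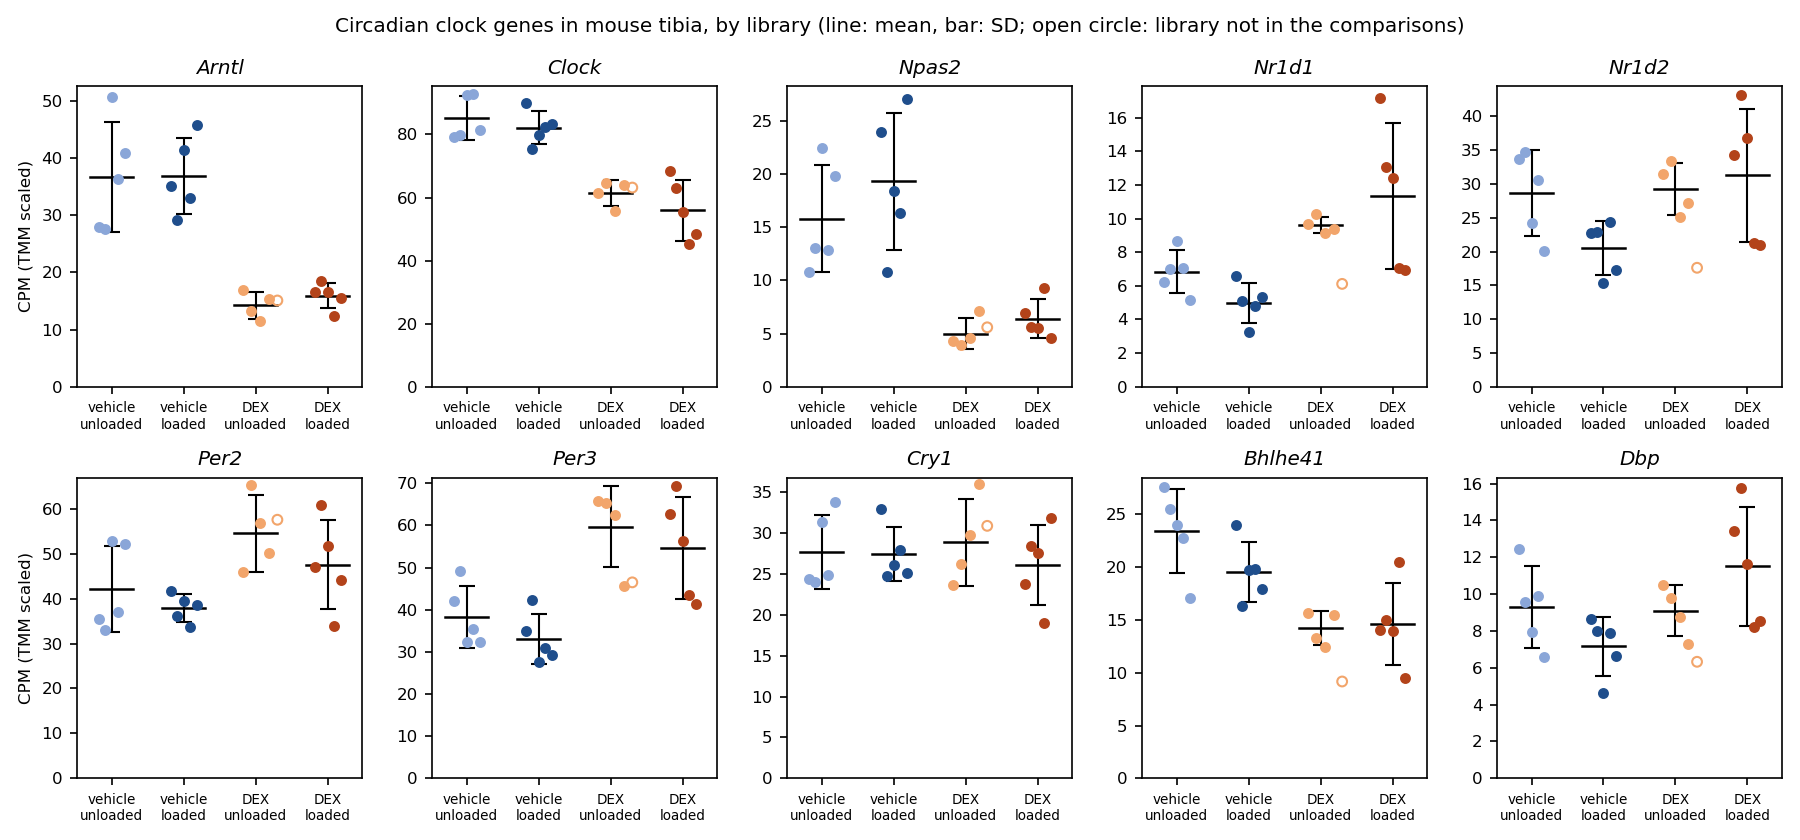
CPM (vertical axes, each from 0) of the 10 clock genes in each library of the 4 groups; points are libraries, the line is the mean, the bar is the SD, and the open circle is unloaded DEX replicate 4, which is not in the comparisons. The DEX points of Arntl, Clock and Npas2 lie below all vehicle points in both limbs, and the Cry1 points of all 4 groups overlap.

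The positive arm of the clock was lower in DEX-treated than in vehicle-treated tibiae, in loaded and in unloaded limbs. Npas2 was 2.95-fold lower in loaded and 3.08-fold lower in unloaded tibiae, Arntl 2.24-fold and 2.55-fold, and Clock 1.42-fold and 1.37-fold. In each of these 6 comparisons, every DEX library lay below every vehicle library. Loaded and unloaded tibiae are limbs of the same mice, so the results in the 2 limbs are not independent.

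Arntl (ENSMUSG00000055116.8, chr7:113207465-113314126 on GRCm38) encodes the bHLH-PAS factor BMAL1, the partner that the clock cannot run without. Its levels in unloaded vehicle replicates 1, 2, 4 and 5 and the unnumbered library were 28.0, 27.6, 50.6, 36.3 and 40.8 CPM, and in the loaded libraries in the same order 35.1, 29.1, 41.3, 33.0 and 45.7 CPM. Unloaded DEX replicates 1, 2, 3 and 5 had 16.9, 13.2, 11.5 and 15.3 CPM, and loaded DEX replicates 1 to 5 had 16.6, 18.4, 16.6, 12.4 and 15.5 CPM. The highest DEX value, in loaded replicate 2, was below the lowest vehicle value, in unloaded replicate 2. The log2FC of DEX against vehicle was -1.16 in loaded tibiae (SE 0.145, adjusted p = 0.000583) and -1.35 in unloaded tibiae (SE 0.195, adjusted p = 0.00606). Both falls passed the threshold whichever library was left out, and with the background covariate the log2FC of Arntl was -1.005 in loaded (adjusted p = 0.100) and -1.16 in unloaded tibiae (adjusted p = 0.00682).

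Npas2 (ENSMUSG00000026077.15, chr1:39193731-39363236) encodes a relative of Clock that can take its place beside BMAL1. It was the member with the largest fall in both limbs. Unloaded vehicle libraries had 10.7, 13.0, 22.4, 12.9 and 19.8 CPM and loaded vehicle libraries 24.0, 10.7, 18.4, 16.3 and 27.1 CPM. In unloaded DEX libraries the values were 4.34, 3.94, 4.57 and 7.12 CPM, and in loaded DEX libraries 6.98, 5.58, 5.56, 9.29 and 4.55 CPM. Vehicle values varied widely, and the highest DEX value, in loaded replicate 4, still lay under the lowest of them. The log2FC of Npas2 was -1.56 in loaded tibiae (SE 0.259, adjusted p = 0.00300) and -1.62 in unloaded tibiae (SE 0.268, adjusted p = 0.00938). With the background covariate the log2FC of Npas2 was -1.84 in loaded (adjusted p = 0.107) and -1.26 in unloaded tibiae (adjusted p = 0.00650), and no omission of a library ended either call.

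Clock (ENSMUSG00000029238.11, chr5:76209868-76304792), the usual partner of BMAL1, moved less than Arntl and Npas2. Unloaded vehicle libraries had 79.2, 79.9, 92.5, 93.0 and 81.3 CPM, and loaded vehicle libraries 89.9, 75.5, 79.7, 82.3 and 83.2 CPM. DEX libraries had 61.5, 64.7, 55.7 and 64.0 CPM without load and 68.3, 62.9, 55.4, 45.2 and 48.4 CPM with load. All DEX values were below all vehicle values, with loaded DEX replicates 4 and 5 the lowest. The log2FC was -0.51 in loaded tibiae (SE 0.128, adjusted p = 0.0174) and -0.45 in unloaded tibiae (SE 0.113, adjusted p = 0.0341). In unloaded tibiae the fall of Clock no longer passed without DEX replicate 1, 2 or 3 (adjusted p = 0.0631, 0.0748 and 0.147) or without vehicle replicate 4 or 5 (0.0505 and 0.0605), at log2FC values from -0.48 to -0.41. With the background covariate the log2FC of Clock in loaded tibiae was -0.43 (adjusted p = 0.439).

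**Figure D2:**
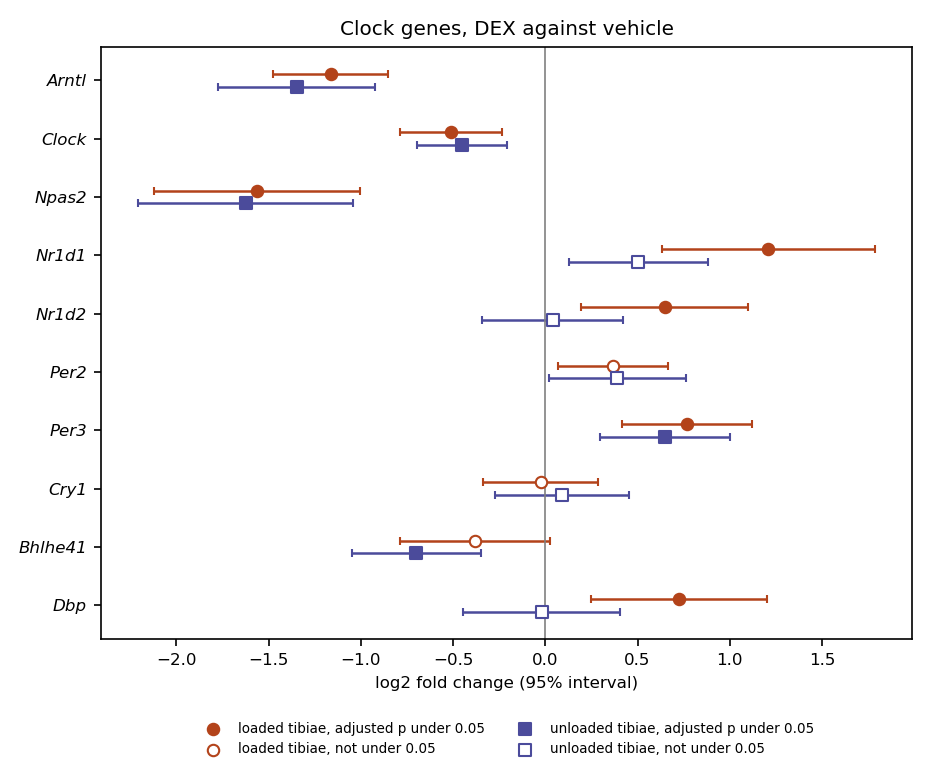
Log2 fold change of DEX against vehicle (horizontal axis) with its 95% interval for each of the 10 clock genes, in loaded (circles) and unloaded tibiae (squares); filled symbols have an adjusted p under 0.05. Arntl, Clock and Npas2 lie left of 0 with filled symbols in both limbs, Per3 lies right of 0 with filled symbols in both, and Nr1d1, Nr1d2 and Dbp are filled in loaded tibiae.

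The nuclear receptors that repress Arntl were higher with DEX in loaded tibiae, by 2.31-fold for Nr1d1 and 1.57-fold for Nr1d2. In unloaded tibiae neither passed the threshold, with a log2FC of 0.50 for Nr1d1 (95% interval 0.13 to 0.88, adjusted p = 0.101) and 0.04 for Nr1d2 (-0.34 to 0.42, adjusted p = 0.909). The difference between the effects in the 2 limbs was tested as the interaction of treatment and loading, and it passed for neither gene (Nr1d1 0.67, SE 0.340, adjusted p = 0.421; Nr1d2 0.57, SE 0.297, adjusted p = 0.423).

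Nr1d1 (ENSMUSG00000020889.11, chr11:98767932-98775333), the gene whose E-prime box is shown above, had 6.23, 7.00, 8.69, 7.08 and 5.17 CPM in unloaded vehicle libraries and 6.56, 5.08, 3.25, 4.79 and 5.35 CPM in loaded vehicle libraries. Unloaded DEX libraries had 9.65, 10.3, 9.14 and 9.37 CPM, and loaded DEX libraries 17.2, 13.0, 12.4, 7.09 and 6.93 CPM. The groups did not overlap in either limb, although loaded DEX replicates 4 and 5 lay just above the highest loaded vehicle value. In loaded tibiae the log2FC was 1.21 (SE 0.268, adjusted p = 0.0113), and the rise passed without each library in turn (adjusted p up to 0.0313) but not with the background covariate, where the log2FC of Nr1d1 was 1.62 (adjusted p = 0.172). Unloaded DEX replicate 4, which is not in the comparisons, had 6.12 CPM, below the other 4 libraries of its group, and with it the log2FC in unloaded tibiae was 0.38 (adjusted p = 0.175). Nr1d1 overlaps Thra, a thyroid hormone receptor gene on the opposite strand, and whether the counting used the strand is not given in the sources used here. The log2FC of Thra was opposite in sign to that of Nr1d1, at -0.55 under load (adjusted p = 0.0402) and -0.43 without load (adjusted p = 0.0576).

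Nr1d2 (ENSMUSG00000021775.11, chr14:18204054-18239127) had 33.7, 34.8, 24.2, 30.6 and 20.1 CPM in unloaded vehicle libraries and 22.7, 23.0, 15.4, 24.3 and 17.2 CPM in loaded vehicle libraries. The values in DEX-treated mice were 31.5, 33.3, 25.1 and 27.2 CPM in unloaded libraries and 34.2, 43.1, 36.9, 21.3 and 20.9 CPM in loaded libraries. Loaded DEX replicates 4 and 5 fell within the range of the loaded vehicle group, and the other 3 were above it. The log2FC in loaded tibiae was 0.65 (SE 0.210, adjusted p = 0.0441). That rise rested on single libraries: it did not pass without DEX replicate 1, 2 or 3 (adjusted p = 0.0850, 0.101 and 0.0812), vehicle replicate 1, 2 or 4 (0.0763, 0.0760 and 0.103) or the unnumbered vehicle library (0.121).

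Among the repressors, Per3 was higher with DEX in both limbs. Bhlhe41 was lower in unloaded tibiae and did not pass in loaded tibiae. Neither Per2 nor Cry1 passed in either limb in the main edgeR fits. Per3 (ENSMUSG00000028957.12, chr4:151003652-151044665), a period gene with a D-box in its promoter, was 1.70-fold higher in loaded and 1.57-fold higher in unloaded tibiae. Its levels were 42.2, 49.1, 32.3, 35.5 and 32.4 CPM in unloaded vehicle libraries and 35.0, 42.3, 27.5, 31.0 and 29.3 CPM in loaded vehicle libraries. Unloaded DEX libraries had 65.7, 65.2, 62.4 and 45.6 CPM, and loaded DEX libraries had 62.8, 69.3, 56.3, 43.5 and 41.3 CPM. The groups overlapped in each limb through 1 vehicle library, replicate 2, with unloaded DEX replicate 5 and with loaded DEX replicate 5. The log2FC was 0.77 in loaded tibiae (SE 0.163, adjusted p = 0.00962) and 0.65 in unloaded tibiae (SE 0.161, adjusted p = 0.0342). In loaded tibiae the rise of Per3 passed without each library in turn, and in unloaded tibiae it did not pass without DEX replicate 1, 2 or 3 (adjusted p = 0.0653, 0.0891 and 0.124) or vehicle replicate 4 or 5 (0.0771 and 0.0923). Per3 lies partly within the annotated span of Camta1 on the same strand, whose log2FC was 0.67 under load (adjusted p = 0.0440) and -0.30 without load (adjusted p = 0.360).

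Bhlhe41 (ENSMUSG00000030256.11, chr6:145858243-145865558), which encodes the E-box repressor DEC2, was 1.62-fold lower in unloaded tibiae. Unloaded vehicle libraries had 27.6, 25.6, 24.0, 22.8 and 17.1 CPM, and unloaded DEX libraries 15.7, 13.3, 12.5 and 15.5 CPM, with no overlap. In loaded libraries the values were 24.0, 16.3, 19.8, 19.8 and 17.9 CPM with vehicle and 14.1, 15.0, 14.0, 20.5 and 9.53 CPM with DEX, and the overlap came from DEX replicate 4. The log2FC of Bhlhe41 was -0.70 in unloaded tibiae (SE 0.161, adjusted p = 0.0261) and -0.38 in loaded tibiae (SE 0.188, 95% interval -0.79 to 0.02, adjusted p = 0.157). Without loaded DEX replicate 4 it was -0.55 in loaded tibiae and passed (adjusted p = 0.0433). The fall in unloaded tibiae did not pass without DEX replicate 2 or 3 (adjusted p = 0.0642 and 0.111) or vehicle replicate 5 (0.0559).

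Per2 (ENSMUSG00000055866.9, chr1:91415982-91459324), the period gene with the strongest known role in the loop, had a log2FC of 0.37 in loaded tibiae (95% interval 0.07 to 0.66, adjusted p = 0.0721) and 0.39 in unloaded tibiae (0.02 to 0.76, adjusted p = 0.181). Unloaded vehicle libraries had 35.4, 33.1, 52.9, 37.1 and 52.2 CPM, and unloaded DEX libraries 45.8, 65.3, 56.8 and 50.1 CPM. Loaded vehicle libraries had 41.7, 36.2, 39.5, 33.8 and 38.6 CPM, and loaded DEX libraries 47.1, 60.9, 51.6, 34.0 and 44.1 CPM. In loaded tibiae, 4 DEX values were above all vehicle values, the exception being replicate 4, which lay within the vehicle range. Without that library Per2 passed by edgeR (log2FC 0.45, adjusted p = 0.0212). In loaded tibiae Per2 also passed by DESeq2, and by edgeR with at least 10 counts in every library. Cry1 (ENSMUSG00000020038.10, chr10:85131700-85185064), a cryptochrome that represses CLOCK and BMAL1, had group means from 26.1 to 28.9 CPM and overlapped between all groups. Its log2FC was -0.02 in loaded tibiae (95% interval -0.34 to 0.29, adjusted p = 0.918) and 0.09 in unloaded tibiae (-0.27 to 0.45, adjusted p = 0.776), and its sign was not stable over the alternatives.

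Dbp (ENSMUSG00000059824.12, chr7:45705088-45710203), a PAR bZIP factor that is an output of the loop and binds D-boxes, was 1.65-fold higher with DEX in loaded tibiae. Loaded vehicle libraries had 8.66, 8.01, 4.63, 7.89 and 6.64 CPM, and loaded DEX libraries 13.4, 15.8, 11.6, 8.19 and 8.56 CPM. DEX replicates 4 and 5 overlapped with the highest vehicle library, replicate 1. The log2FC was 0.72 (SE 0.222, adjusted p = 0.0360), and it did not pass without DEX replicate 1, 2 or 3 (adjusted p = 0.0772, 0.0831 and 0.0567), vehicle replicate 1, 2 or 4 (0.0537, 0.0659 and 0.0782) or the unnumbered vehicle library (0.0944). In unloaded tibiae Dbp had 12.5, 9.55, 7.96, 9.91 and 6.60 CPM with vehicle and 10.5, 9.80, 8.77 and 7.31 CPM with DEX, a log2FC of -0.02 (95% interval -0.45 to 0.41, adjusted p = 0.960). Dbp overlaps Sphk2, a sphingosine kinase gene on the opposite strand, whose log2FC was 0.22 under load (adjusted p = 0.222) and 0.62 without load (adjusted p = 0.0297).

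Taking the members together, 7 of 10 passed in loaded tibiae, where 21.3% of the 19780 genes tested did. Of these, 4 were higher (Nr1d1, Nr1d2, Per3 and Dbp), against 12.9% of all genes, and 3 were lower (Arntl, Clock and Npas2), against 8.35% of all genes. An unadjusted p under 0.05 was found for 8 members and for 37.2% of all genes. For 4 members the groups did not overlap, as for 16.5% of all genes tested: Nr1d1 lay higher (7.66% of all genes) and Arntl, Clock and Npas2 lay lower (8.85%). The median log2FC was 0.17 over the members and 0.0040 over all genes. Without a filter on low counts, which moved the log2FC of the members by a median of -0.18, 5 passed, 1 higher and 4 lower, against 20.2% of all genes in that fit. Without loaded DEX replicate 4, 9 members passed, 5 higher and 4 lower, against 15.2% of all genes. With the background covariate 0 members passed, as did 31 of all 19780 genes, while 8 members and 12.2% of all genes had an unadjusted p under 0.05 by edgeR in that fit. The 7 members kept their direction, at a log2FC of -1.005 for Arntl, -0.43 for Clock, -1.84 for Npas2, 1.62 for Nr1d1, 0.95 for Nr1d2, 1.06 for Per3 and 1.15 for Dbp. In that limb, the covariate did not overlap between the treatments, so that background and treatment cannot be told apart.

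In unloaded tibiae 5 of 10 members passed, where 6.84% of 19738 genes did: Per3 was higher, against 2.86% of all genes, and Arntl, Clock, Npas2 and Bhlhe41 were lower, against 3.99%. The groups did not overlap for 5 members, namely those 4 falls and Nr1d1, as for 10.8% of all genes (4.45% higher and 6.4% lower). An unadjusted p under 0.05 was found for 7 members and for 24.6% of all genes. The median log2FC was 0.0099 over the members and 0.033 over all genes. When unloaded DEX replicate 4 was kept, 5 members again passed, 1 higher and 4 lower, against 15.2% of all genes. The covariate fit gave 6 passing members, against 13.5% of all genes. When single libraries were left out, the number fell to 3 without DEX replicate 1 or vehicle replicate 4 (6.41% and 4.26% of all genes) and to 2 without DEX replicate 2, DEX replicate 3 or vehicle replicate 5 (3.98%, 0.633% and 2.72%). Arntl and Npas2 passed in all of these fits.

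**Figure D3:**
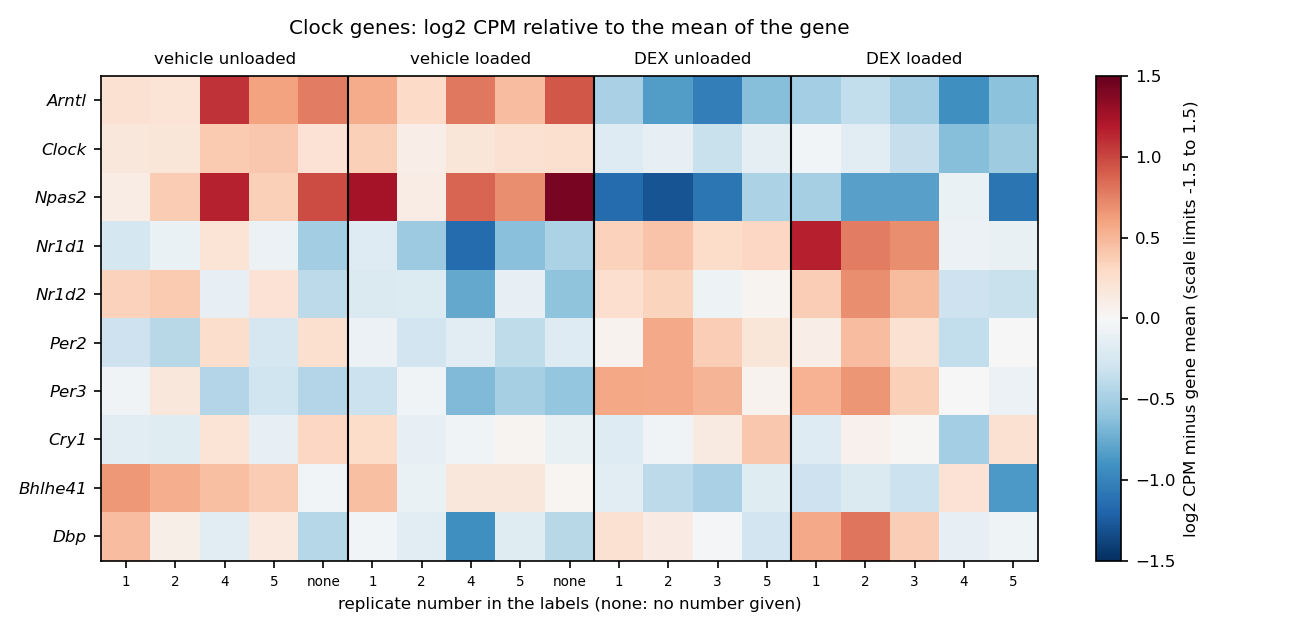
Log2 CPM of each clock gene minus its mean over the 19 libraries of the comparisons (colour, from -1.5 in blue to 1.5 in red), with libraries as columns in 4 groups and genes as rows. Arntl, Clock and Npas2 are red in the 10 vehicle columns and blue in the 9 DEX columns, and Nr1d1, Nr1d2, Per3 and Dbp are above their means in loaded DEX replicates 1 to 3 and below them in replicates 4 and 5.

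Other clock genes were counted from a list of 21. In loaded tibiae 7 of the 21 passed between DEX and vehicle, against 21.3% of all genes, with 5 higher (12.9% of all genes) and 2 lower (8.35%). With single libraries left out, the number ran from 2 to 10. It was 2 without the unnumbered vehicle library (12.7% of all genes) and 10 without DEX replicate 2 (28%). By DESeq2 it was 8 (28.6%), with the replicate block 2 (11.7%) and with the background covariate 0 (0.157%). In unloaded tibiae 1 of the 21 passed, against 6.84% of all genes. Hlf, a PAR bZIP factor like Dbp, was higher in loaded tibiae, with 9.86 to 12.8 CPM in loaded DEX and 6.38 to 8.63 CPM in loaded vehicle libraries (log2FC 0.64, SE 0.158, adjusted p = 0.0162). In unloaded tibiae its log2FC was 0.28 (adjusted p = 0.418). The third PAR bZIP factor, Tef, had log2FC values of 0.32 under load (adjusted p = 0.273) and 0.11 without load (adjusted p = 0.631). Nfil3, which represses through the same D-boxes, had 0.25 (adjusted p = 0.254) and 0.23 (adjusted p = 0.624). Without the unnumbered loaded vehicle library, the log2FC of Hlf was 0.55 and did not pass (adjusted p = 0.0528).

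Of the remaining repressors, Per1 had a log2FC of -0.56 in loaded tibiae (95% interval -1.08 to -0.04, adjusted p = 0.107) and -0.60 in unloaded tibiae (-1.43 to 0.22, adjusted p = 0.347). Per1, a period gene that glucocorticoids are known to induce within hours, had 28.4 to 129 CPM in unloaded vehicle libraries, a wider spread than the 30.3 to 50.7 CPM of unloaded DEX libraries. Without loaded DEX replicate 2 the log2FC of Per1 in loaded tibiae was -0.77 and passed (adjusted p = 0.0317). Cry2, the second cryptochrome gene, had a log2FC of 0.23 (adjusted p = 0.206) in loaded and 0.0038 (adjusted p = 0.988) in unloaded tibiae. Ciart, a repressor of CLOCK and BMAL1, had 0.93 (adjusted p = 0.106) and 0.23 (adjusted p = 0.715), and passed in loaded tibiae without DEX replicate 2 (log2FC 1.08, adjusted p = 0.0477).

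Rora, the receptor that competes with Nr1d1 and Nr1d2 at RORE sites as an activator, was the only one of the 21 to pass in unloaded tibiae. It had 72.6 to 91.5 CPM with vehicle and 40.8 to 60.6 CPM with DEX in unloaded libraries, without overlap, and was 1.69-fold lower (log2FC -0.75, SE 0.147, adjusted p = 0.0152; without DEX replicate 3, -0.68 and 0.0727). Under load its log2FC was 0.11 (adjusted p = 0.637), and the interaction was 0.82 (SE 0.224, adjusted p = 0.341). The other passing genes of the list in loaded tibiae were Rorb (log2FC 2.34, adjusted p = 0.0159), Fbxl21 (2.12, 0.0121), Arntl2 (1.18, 0.0428) and Usp2 (0.86, 0.0317), which were higher, and Csnk1d (-0.42, 0.0402) and Btrc (-0.40, 0.0459), which were lower. Rorb, Fbxl21 and Arntl2 had 0.729 to 3.19 CPM in loaded vehicle libraries, and had their highest values, 19.1, 9.45 and 10.2 CPM, in loaded DEX replicate 4, the library with the most background reads. Without that library Rorb and Fbxl21 had log2FC values of 1.60 and 1.76 (adjusted p = 0.0258 and 0.0215), and Arntl2 did not pass (0.76, adjusted p = 0.0934), nor did Btrc (-0.36, 0.0695) or Usp2 (0.83, 0.0592). With the background covariate the log2FC of Rorb, Arntl2 and Fbxl21 was -0.04, 0.20 and 0.24. The calls of Arntl2, Usp2 and Btrc were each lost in 7 of the 10 fits that left out a library, and that of Csnk1d in 5.

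**Figure D4:**
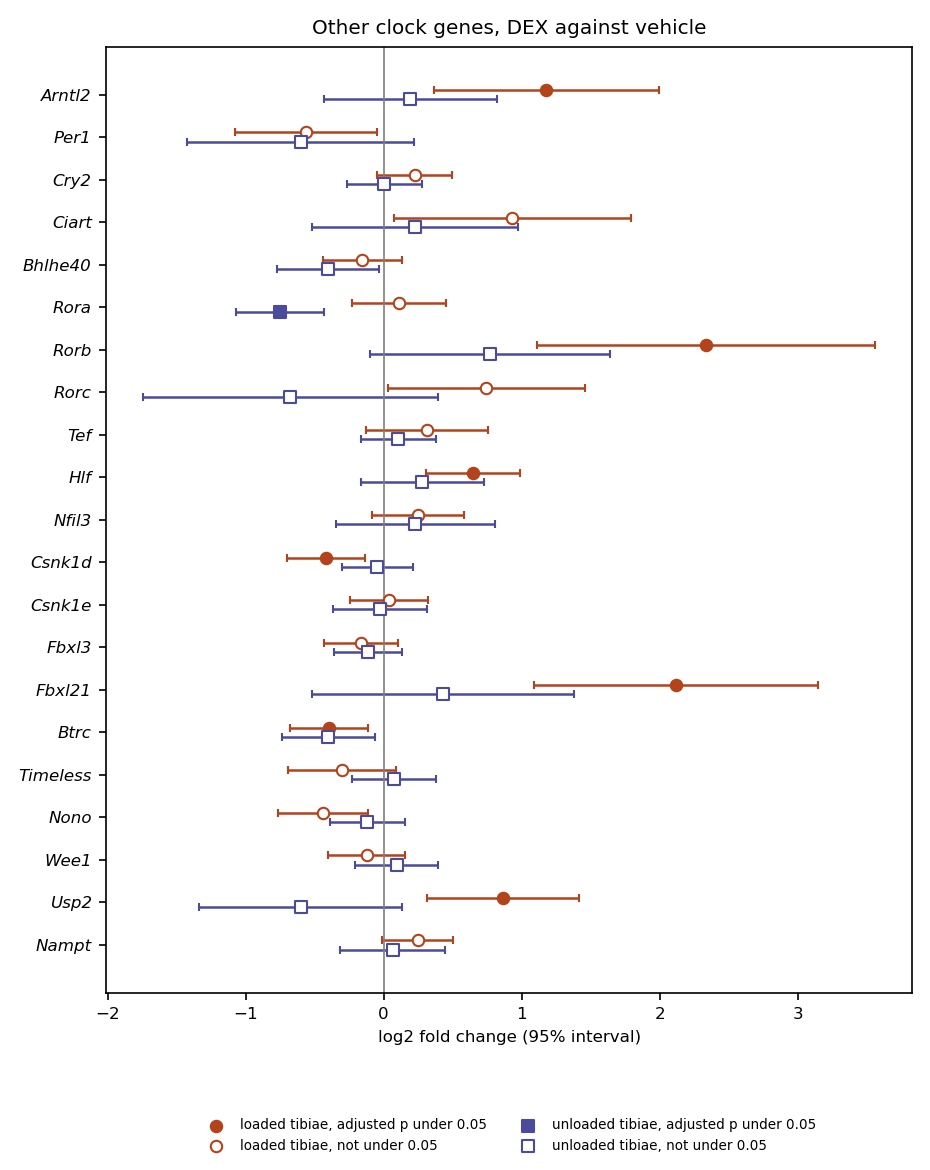
Log2 fold change of DEX against vehicle (horizontal axis) with its 95% interval for 21 other clock genes in loaded (circles) and unloaded tibiae (squares); filled symbols have an adjusted p under 0.05. In loaded tibiae 5 filled circles lie right of 0 and 2 left of it, and Rora has the single filled square, at -0.75.

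Loading was compared with no loading within each treatment to see whether the clock genes responded to the mechanical stimulus itself. Among 5 loaded and 5 unloaded vehicle libraries, 0 of 10 members passed the adjusted threshold by edgeR, as did 0 of 17982 genes (0%). DESeq2 called 0 members and 141 genes. At an unadjusted p under 0.05, edgeR had 2 members, against 9.86% of all genes. Nr1d2 was 28.7 ± 6.31 CPM without load and 20.5 ± 3.94 CPM with load (mean ± SD of 5 libraries), a log2FC of -0.52 (SE 0.190, edgeR adjusted p = 0.435). Nr1d1 was 6.84 ± 1.29 CPM without load and 5.01 ± 1.19 CPM with load, a log2FC of -0.48 (SE 0.205, edgeR adjusted p = 0.490). The log2FC was below 0 for 9 of the 10 members, Npas2 being the exception at 0.26, and 2 members, Arntl and Cry1, changed sign under at least 1 alternative, with a median of -0.21 over the members and -0.0021 over all genes. Loaded and unloaded values did not separate for any member, as they did for 1.33% of all genes. Dbp had a log2FC of -0.40 (95% interval -0.87 to 0.06, adjusted p = 0.541), and Arntl -0.02 (-0.38 to 0.35, adjusted p = 0.975).

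Loading in DEX-treated mice gave 0 of 10 members past the threshold, with 5 loaded and 4 unloaded libraries, and 0 of 22541 genes (0%) by edgeR. DESeq2 also called 0 members. By edgeR, 0 members had an unadjusted p under 0.05, against 4.25% of all genes. For 0 members the groups did not overlap, against 1.25% of all genes. The log2FC ran from -0.22 for Per2 to 0.33 for Dbp, with 5 members on each side of 0, of which 4 changed sign under at least 1 alternative, and a median of 0.036, against 0.021 over all genes. The interaction, which compares the loading response between treatments over 23653 genes in 19 libraries, was passed by 0 members and by 0 genes (0%) with edgeR, and by 0 members and 51 genes with DESeq2. At an unadjusted p under 0.05 edgeR had 1 member, against 12.1% of all genes: Dbp, with a difference of 0.71 (SE 0.309, adjusted p = 0.404). Differences of the other 9 members ran from -0.15 for Cry1 to 0.67 for Nr1d1. Of the 21 other clock genes, 0 passed in any of these 3 comparisons by edgeR, and DESeq2 called 1, Usp2, in vehicle-treated mice.

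**Figure D5:**
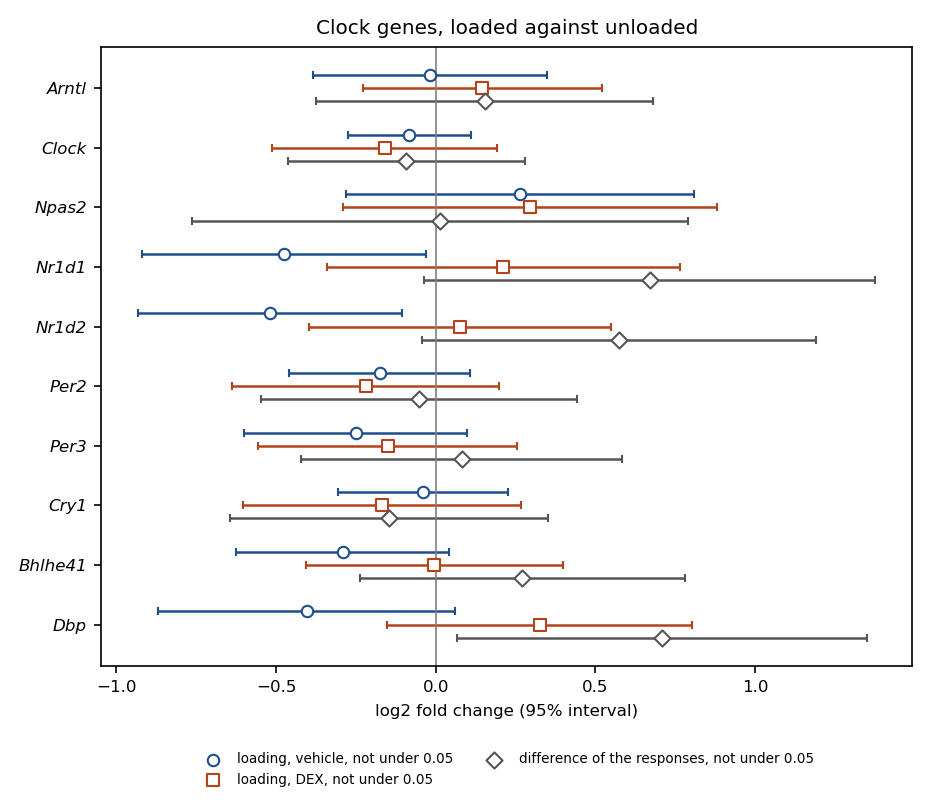
Log2 fold change of loaded against unloaded tibiae (horizontal axis) with its 95% interval in vehicle-treated (circles) and DEX-treated mice (squares), and the difference between these responses (diamonds), for the 10 clock genes. All symbols are open because 0 members passed the adjusted threshold, and the intervals of Nr1d1 and Nr1d2 in vehicle-treated mice and of the difference for Dbp do not include 0.

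The genes whose values varied most like a clock gene within groups were sought among 12951 genes with a mean of at least 5 CPM, over the 19 libraries and after the group means were removed. Pairs of these libraries come from the same mice and share depth and background, so the correlations are a description. With Arntl, the highest Pearson correlations outside the clock lists were those of Pomt2 (0.83), Prss23 (0.80) and Zfp975 (0.80). With Dbp, they were those of Nrgn (0.82), Fmo2 (0.81) and Mavs (0.81).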

How the data were processed

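Gene-level expected counts were deposited by the authors for 20 mouse tibia libraries. The submitters' processing notes name STAR 2.7.10a, RSEM 1.2.28 and GRCm38, and the annotation and the strand setting of the counting are not given in the sources used here. Of the gene identifiers, 54409 matched GENCODE M21, 53229 of them with their version. Groups were taken from the sample labels. In each vehicle group 1 column carries a number that matches no label, and it was assigned to its group and is called the unnumbered library.

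Expected counts were rounded to whole numbers. The study's methods name the DESeq2 Wald test, and here edgeR's quasi-likelihood test (edgeR 4.0.16, R 4.3.3, limma 3.58.1; filterByExpr, TMM normalisation) was used, with DESeq2 1.42.0 as an alternative. P-values were adjusted by the Benjamini-Hochberg method over all genes tested, and an adjusted p under 0.05 passed. Log2FC is the fitted log2 fold change and SE its standard error. CPM were scaled by TMM over 22659 genes kept across all libraries, and a prior count of 2 was used for log2 CPM. The 5 comparisons were loading within each treatment, DEX within each limb, and their interaction. The labels do not tie libraries to mice beyond a number, so p-values measure the spread between these libraries. Among the 10 genes, expected counts per library were lowest for Nr1d1 and Npas2, which limits their precision.

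By rule, the text names all 10 clock genes, Per1, Cry2, Ciart, Tef, Hlf and Nfil3 of the 21 other clock genes, any other of the 21 that passed, 6 glucocorticoid genes as a check on DEX, and the 3 genes most like Arntl and like Dbp. The members and lists were chosen with earlier results of these data known. Alternatives were DESeq2 and its size factors, no filter, at least 10 counts in every library, a replicate block and all 4 groups in 1 model. Others were unloaded DEX replicate 4 kept, a background read covariate and each library left out. For loading with DEX and the interaction, loaded in place of unloaded DEX replicate 4 was also left out. The numbered libraries without the block were added after seeing the data, as was a block by number within treatment for the interaction. The tests were checked on simulated counts in which 200 genes were changed by a log2FC of 2. This is larger than the change of any member in the main fits, and smaller changes were not simulated. Python 3.11.15 was used for sequences and figures.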

Additional observations from a re-analysis of the deposited data

Results flagged for a closer look

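Of the 40 groups of values examined, 10 clock genes in 4 groups, 1 held a library far from the others. Per3 in unloaded DEX replicate 5 was 45.6 CPM, whereas the other 3 libraries of that group had 62.4 to 65.7 CPM, so that the gap made up 0.833 of the range of the group. Chance gives such a gap in about 1 of 20 groups.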

How the results depend on the processing

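In loaded tibiae, 7 members passed between DEX and vehicle, against 21.3% of all genes. By DESeq2 it was 8 (28.6% of all genes). It was also 8 with at least 10 counts in every library (14.3%) and with all 4 groups in 1 model (35.7%). Without a filter on low counts it was 5 (20.2%), and with a replicate block 4 (11.7%). In the same numbered libraries without the block it was 2 (5.65%), and with the background covariate 0 (0.157%). With single libraries left out it ran from 5 to 9, while 12.7% to 28% of all genes passed. In unloaded tibiae 5 passed, against 6.84% of all genes. The number was 6 with the covariate (13.5% of all genes) and 3 without a filter on low counts (3.74%). It was 2 with the replicate block (2.63%) and 3 in the numbered libraries without the block (2.86%). With single libraries left out it ran from 2 to 5, while 0.633% to 9.6% of all genes passed. Whether a number marks the same mouse in both limbs is not given in the labels used here. Between the limbs, same-numbered libraries had correlations of deviations of -0.18, -0.18, -0.30 and 0.25 with vehicle (0 of 4 best with their own number) and of 0.36, 0.35, 0.02 and 0.35 with DEX (2 of 4), so that not every pair was over 0.1 in either treatment, and the numbers were not used as pairs. Vehicle and DEX libraries come from different mice, and a shared number cannot pair them by animal. With the replicate block, 0 members passed for loading in either treatment. In the loading comparisons and the interaction, 0 members passed under every alternative, and at an unadjusted p under 0.05 there were 2 for loading with vehicle, 0 for loading with DEX and 1 for the interaction.

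Signs changed for members near 0. Cry1 in loaded tibiae was 0.081 with at least 10 counts in every library, 0.24 with the covariate, and -0.12 to 0.06 with single libraries left out (0.0066, 0.014 and 0.057 in the reversals). Nr1d2 in unloaded tibiae was -0.013 without a filter, -0.11 with the block, -0.11 in the numbered libraries without it, -0.0085 with all 4 groups in 1 model, -0.087 with unloaded DEX replicate 4 kept and -0.11 with the covariate, and -0.06 to 0.13 with single libraries left out (-0.035, -0.026 and -0.065 in the reversals). With single libraries left out, Cry1 in unloaded tibiae ran from -0.077 to 0.19, and Dbp from -0.12 to 0.11 (0.04 and 0.11 in the reversals). In the loading comparisons, where 0 members passed, 2 members changed sign under at least 1 alternative with vehicle (Arntl and Cry1) and 4 with DEX (Bhlhe41, Cry1, Nr1d2 and Per3), and 5 did in the interaction (Clock, Cry1, Npas2, Per2 and Per3). The cause of these changes was not tested.

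The numbers of genes called over the whole table ran from 31 to 9016 for DEX in loaded and from 129 to 2922 in unloaded tibiae, so adjusted p-values near the threshold moved with the setting. Nr1d1, Npas2 and Dbp had the fewest reads, which limits what could be detected for them.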

Other observations

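Loaded DEX replicates 4 and 5 were the lowest libraries of their group for 7 of the 10 clock genes, the exceptions being Npas2, Cry1 and Bhlhe41. The summed level of the osteoblast and osteocyte genes was 5202 and 5508 CPM in these libraries, and 14270 to 24328 CPM in the other 3 of the group. Unloaded DEX replicate 5, which had the lowest Per3 value of its group, had an osteoblast and osteocyte sum of 7276 CPM, the lowest of the unloaded libraries in the comparisons. The part of these sums in the clock gene values was not tested.

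In vehicle-treated mice, Usp2, a deubiquitinase whose level follows the clock, had a log2FC of -1.03 between loaded and unloaded tibiae (SE 0.242, adjusted p = 0.229 by edgeR and 0.0161 by DESeq2), and Rora had -0.42 (SE 0.124, adjusted p = 0.342 by edgeR). The interaction of treatment and loading was 1.42 for Usp2 (SE 0.453, adjusted p = 0.359) and 0.82 for Rora (SE 0.224, adjusted p = 0.341), which did not pass.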
